A study of Mus musculus with 8 samples.

Results

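The 7 genes described here, Lcn5, Lcn6, Lcn8, Lcn9, Lcn10, Lcn12 and Ptgds, encode lipocalins that the mouse epididymis is known to secrete, and they were taken by gene symbol from a table of 19348 genes. All 7 symbols were present once. The study deleted Crtc1, a coactivator of the cAMP-responsive factor CREB, and asked how its loss acts on metabolism in liver and in epididymal white adipose tissue (eWAT), the fat pad that lies against the epididymis. RNA was sequenced from male C57BL/6 mice aged 12 weeks that had been fasted for 16 hours, with 2 libraries for each of 4 groups: liver of Crtc1+/+ mice, liver of Crtc1-/- mice, eWAT of Crtc1+/+ mice and eWAT of Crtc1-/- mice. The deletion was whole-body, made with CRISPR/Cas9 guides to exons 2 and 4, and the Crtc1+/+ mice were littermates from intercrosses of heterozygotes. The methods named 2 mice of each genotype as the source of both tissues, but the labels did not say which liver and which eWAT library came from 1 mouse.

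Lipocalins are small secreted proteins that fold into a barrel with a pocket for a hydrophobic ligand, such as a retinoid, a steroid or a lipid. In the epididymis, the coiled duct in which sperm mature, the epithelium releases different lipocalins into the lumen along its length, and many of these genes depend on hormones and on factors that reach the duct from the testis. Ptgds differs from the others in that it is also an enzyme, which converts prostaglandin H2 into prostaglandin D2, and it is made in brain, testis and other tissues as well.

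The 7 genes lie on chromosome 2 within 358838 bases of each other (RefSeq, GRCm38.p6). Ptgds (25466709 to 25470110, 7 exons) and Lcn12 (25490845 to 25494061, 6 exons) are on the minus strand. On the plus strand follow Lcn8 (25653118 to 25656217, 7 exons), Lcn5 (25657932 to 25662230, 7 exons), Lcn6 (25676638 to 25681608, 7 exons) and Lcn10 (25682726 to 25686081, 6 exons), which fill a stretch of 32964 bases, and then Lcn9 (25823088 to 25825546, 7 exons). Their coding sequences are between 525 nt (Lcn8) and 579 nt (Lcn12). The annotated transcripts of these genes and of Lcn2 shared no run of 25 bases, so that a read of such a length without mismatches could be placed in 1 of them.

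The bases before 4 of the plus-strand genes, all in the stretch from Lcn8 to Lcn10, are shown because these genes were among those with the largest differences in eWAT described below. Positions are counted from the transcript start that the RefSeq promoter table uses. For Lcn8 and Lcn10 this is the first base of the gene, whereas for Lcn5, Lcn6 and Lcn9 it lies further in, so that the last 20 bases shown for Lcn5 and all 30 shown for Lcn6 fall inside the gene's outer limits given above. Capitals mark TATAA on the plus strand, and CCAAT on either strand.
Lcn8, chr2:25653038-25653117, plus strand: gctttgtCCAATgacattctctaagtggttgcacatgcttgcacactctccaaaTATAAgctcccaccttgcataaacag
Lcn5, chr2:25657872-25657951, plus strand: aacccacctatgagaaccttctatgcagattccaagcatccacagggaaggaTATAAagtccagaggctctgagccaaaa
Lcn6, chr2:25676756-25676785, plus strand: agataTATAAgctgtttcctggttggagac
Lcn10, chr2:25682646-25682725, plus strand: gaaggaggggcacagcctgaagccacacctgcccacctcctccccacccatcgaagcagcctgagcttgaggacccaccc

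TATAA began 26 bases before the start of Lcn8, 28 before that of Lcn5 and 25 before that of Lcn6, and was not found before Lcn9 or Lcn10. Of all 32851 promoters in the RefSeq table, 3.89% held TATAA at 45 to 16 bases before the start, and 16.0% held it anywhere in the 250 bases before it. AGAACA, a steroid hormone response half-site sought on both strands, occurred in those 250 bases in 4 of the 7 lipocalin genes (Lcn6, Lcn9, Lcn10 and Lcn12), against 16.1% of all promoters. CCAAT occurred in Lcn6 and Lcn8, against 33.8% of all promoters. None of the 7 windows held TGACGTCA, the full site of CREB (1.55% of all promoters), its half-site TGACG (17.8%) or the forkhead letters TGTTTAC (3.17%), each sought on both strands. These are matches of letters and no measure of binding.

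In eWAT of Crtc1+/+ mice the 7 genes were among the most abundant transcripts of the tissue. Per length, in the authors' FPKM (fragments scaled to transcript length and library size), Lcn8 was highest with 16356 and 13760 in replicates 1 and 2 (15058 ± 1836, SD, n = 2), the third highest level of all genes in both libraries. Lcn5, the epididymal retinoic acid-binding protein, had 6038 and 5976 (6007 ± 43.3), and Lcn9, an epididymal lipocalin whose ligand is not established, had 4535 and 5702 (5119 ± 825). These 3 genes stood within the 20 highest levels in each library. Lcn10 followed with 1255 and 1325 (1290 ± 49.1) and Lcn6, which is found on sperm, with 1231 and 1137 (1184 ± 66.8). Ptgds had 796 and 640 (718 ± 110), and Lcn12 was lowest with 386 and 410 (398 ± 16.6). No neighbours in this order had overlapping values, but with 2 libraries the steps from Lcn5 to Lcn9 (ratio of means 1.17) and from Lcn10 to Lcn6 (1.09) were not told apart from the spread between libraries. Together the 7 genes took 1.78% and 1.69% of all counts of the Crtc1+/+ eWAT libraries.

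The eWAT of mice labelled Crtc1-/- held almost none of these transcripts. Lcn8 had 8274 and 6874 CPM (the gene's part of all counts of a library, brought to a common library size) in Crtc1+/+ eWAT and 0.270 and 1.08 in eWAT labelled Crtc1-/-, which were 5 and 19 counts. The lower of the Crtc1+/+ libraries was far above the higher of the other pair. Lcn5 had 3587 and 3499.6 CPM against 0.216 and 0.964 CPM (4 and 17 counts). Lcn9 had 3141 and 3905 CPM against 0.108 and 0.567 CPM (2 and 10 counts). In these 3 genes the counts of replicate 2 were above those of replicate 1 in the Crtc1-/- group. In Crtc1+/+ eWAT replicate 1 was higher for Lcn8 and Lcn5, and replicate 2 for Lcn9. Lcn10 had 1204 and 1262 CPM against 0 and 0.170 CPM (0 and 3 counts), and Lcn6 had 782 and 716 CPM and not 1 count in either library labelled Crtc1-/-. For Lcn6 this allows up to 0.162 and 0.170 CPM, the level of 3 counts.

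The differences were smaller for Lcn12 and Ptgds. Lcn12 had 235 and 246 CPM in Crtc1+/+ eWAT against 1.08 and 0.227 CPM (20 and 4 counts), so here replicate 1 of the Crtc1-/- group was the higher one. Ptgds had 543 and 435 CPM against 34.6 and 4.37 CPM (641 and 77 counts) so the 2 libraries labelled Crtc1-/- differed widely from each other. The groups did not overlap for any of the 7 genes, but the share of all genes without such an overlap was not counted.

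**Figure D1:**
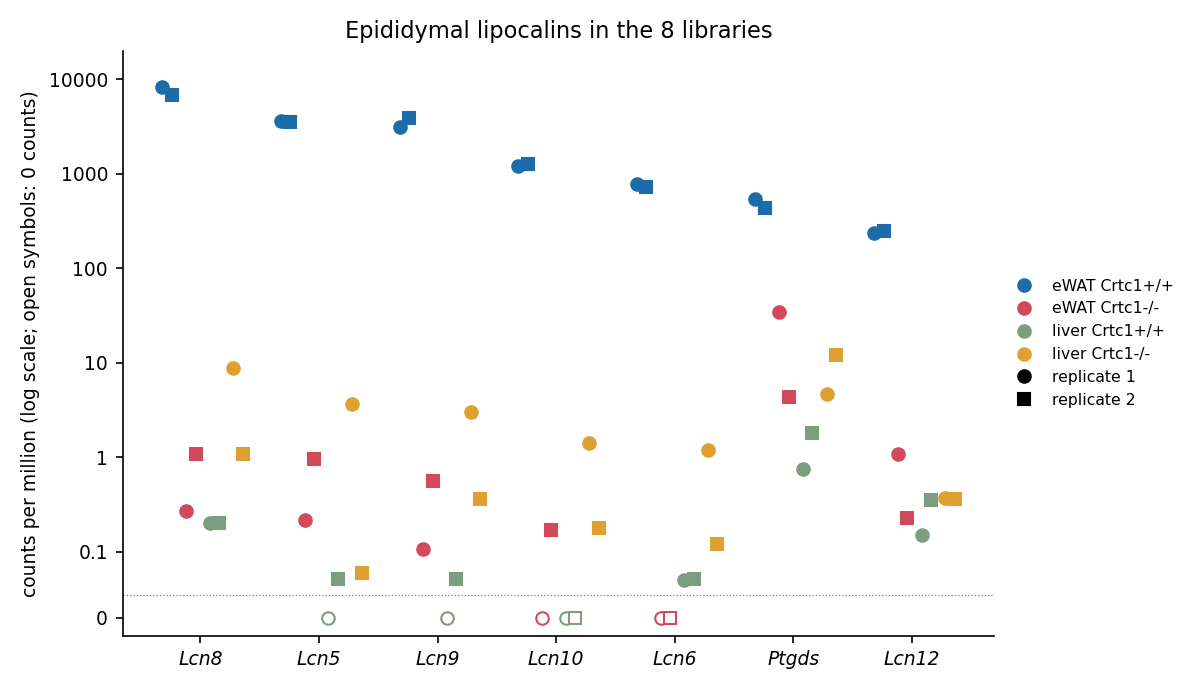
CPM of the 7 lipocalin genes (log axis, genes ordered by their FPKM in Crtc1+/+ eWAT) in each of the 8 libraries, with colours for the 4 groups, circles for replicate 1, squares for replicate 2 and open symbols for 0 counts. The blue Crtc1+/+ eWAT points lie above all others for every gene, between 235 CPM (Lcn12) and 8274 CPM (Lcn8), and the highest point elsewhere is Ptgds at 34.6 CPM in eWAT labelled Crtc1-/-, replicate 1.

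Expressed as a ratio of the pooled counts, with a 95% interval for counting error only, Crtc1+/+ eWAT exceeded eWAT labelled Crtc1-/- by 11424-fold for Lcn8 (7677 to 17830), 10586-fold for Lcn9 (6060 to 20488) and 6098-fold for Lcn5 (3989 to 9852). For Lcn10 the ratio was 14843 (5079 to 71978), resting on 3 counts, and Lcn6 was at least 4516-fold lower, taken against a floor of 3 counts in each library. The ratio was 362 for Lcn12 (243 to 565) and 24.7 for Ptgds (22.9 to 26.6). Ptgds therefore stood apart from the 6 Lcn genes by more than the counting error.

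In the edgeR quasi-likelihood test 6 of the 7 genes were called lower at an adjusted p under 0.05 (Benjamini-Hochberg over all 15391 genes tested), where 5.54% of all genes tested were called lower and 6.65% higher. The 6 called Lcn genes passed edgeR's filter on low counts only through the Crtc1+/+ libraries, where they were high. Their direction was thus fixed by the filter, and their p carries no weight as support for it. Ptgds passed in both groups. On the log2 scale, after edgeR's scaling, Lcn8 fell by 13.07 (SE 1.26, adjusted p = 0.0169), Lcn9 fell by 12.96 (SE 1.23, 0.0165), Lcn5 fell by 12.16 (SE 1.19, 0.0169), Lcn10 fell by 13.40 (SE 1.27, 0.0165) and Lcn12 fell by 8.25 (SE 0.76, 0.0162). Lcn6 was called at an adjusted p of 0.0119, and its fitted value depends on the small count the model adds to 0. Ptgds was just outside the threshold, with a log2 fold change of -4.43 (SE 0.99, unadjusted p = 0.00654, adjusted p = 0.0516). At the study's own threshold, a log2 fold change beyond 1 with an unadjusted p under 0.01, all 7 genes were lower, as were 7.54% of all genes tested. The median log2 fold change was -12.96 over the 7 genes (-12.16 with Lcn6 at its bound) and -0.05 over all genes.

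These calls rested on both Crtc1+/+ libraries. Without replicate 1 of Crtc1+/+ eWAT the adjusted p of the 7 genes lay between 0.143 and 0.189, and without replicate 2 between 0.252 and 0.276, while edgeR then called 0 of all genes, with 3436 and 2565 at an unadjusted p under 0.05. All 7 genes had an unadjusted p under 0.05 in both fits, and their median log2 fold changes were -12.88 and -12.74. When 1 library labelled Crtc1-/- was left out, all 7 genes stayed lower, whichever it was. Ptgds then had a log2 fold change of -6.35 without replicate 1 and -3.66 without replicate 2. Each of the fits without a library has 1 library in a group and takes its spread from the other group alone. With all libraries, DESeq2 and limma on log2 FPKM called all 7. Of 15391 genes, DESeq2 called 2258 lower. Limma called 1071 lower on log2(FPKM + 1) and 1084 lower on log2(FPKM + 0.1).

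In eWAT the levels of the targeted gene overlapped between genotypes, whereas in liver both libraries labelled Crtc1-/- were higher than both Crtc1+/+ libraries. Crtc1 had 36.9 and 36.9 CPM in Crtc1+/+ eWAT against 57.6 and 27.5 CPM in eWAT labelled Crtc1-/- (log2 fold change 0.48, SE 0.37, edgeR adjusted p = 0.396), and 11.6 and 9.61 CPM against 22.1 and 18.6 CPM in liver (0.89, SE 0.27, adjusted p = 0.184). A count over the whole gene includes exons outside the targeted ones, so it does not check the deletion, and the libraries are therefore named by their labels.

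Markers of several cell types differed between the same eWAT libraries. The 63 epididymis markers took 10.1% and 11.5% of all counts in the Crtc1+/+ eWAT libraries and 0.0111% and 0.00270% in those labelled Crtc1-/-, where 14 and 23 of them were at 0. Of the 63, edgeR called 50 lower and none higher in eWAT labelled Crtc1-/-. Their median log2 fold change was -10.22, or -9.21 with the 9 genes at 0 in both libraries set to their bound of 3 counts in each. Gpx5, the epididymal glutathione peroxidase and the most abundant marker, had 46259 and 55428 CPM against 1.78 and 5.73 CPM. The sperm and testis markers took 0.223% and 0.112% of counts against 0.0276% and 0.0119%, and 5 of the 18 tested were called lower. In the other direction, the adipocyte markers took 0.324% and 0.559% of counts in Crtc1+/+ eWAT and 5.19% and 2.57% in eWAT labelled Crtc1-/-, with 11 of 18 called higher. All 10 endothelial markers were called higher, 2 of 8 smooth muscle markers were called lower (Actg2 and Myh11), and of 12 fibroblast and mesothelial markers 1 was called higher (Dpt) and 1 lower (Pdgfra). The part these markers have in the lipocalin differences was not tested. In bulk tissue, fewer cells of a type and less RNA per cell cannot be told apart.

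Libraries ranged from 16560085 to 19721481 counts, so that 3 counts correspond to 0.152 to 0.181 CPM. The eWAT library labelled Crtc1-/- replicate 2 held 11.4% of its counts in hepatocyte markers, against 0.131% to 0.696% in the other eWAT libraries and 20.9% to 24.8% in liver. Without that library all 7 lipocalin genes had a negative log2 fold change in eWAT (median -14.59), in a fit with 1 library labelled Crtc1-/-. Scaling changed the balance of calls over all genes: 54.6% of called genes were higher with TMM scaling (median of all genes -0.05), 42.8% when libraries were scaled to their upper quartile (-0.25) and 35.4% when scaled to their totals (-0.35). All 7 lipocalin genes had a negative log2 fold change under each of these.

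In liver the 7 genes were at trace level. Lcn8 had 0.203 and 0.204 CPM in Crtc1+/+ liver (4 counts each) and 8.88 and 1.09 CPM in liver labelled Crtc1-/- (169 and 18 counts). Lcn5 had 0 and 0.0511 CPM (0 and 1 count) against 3.63 and 0.0604 CPM (69 and 1), and Lcn9 had 0 and 0.0511 CPM against 3.05 and 0.362 CPM (58 and 6). In all 3 the single high library was replicate 1 of liver labelled Crtc1-/-. Lcn10 had no count in Crtc1+/+ liver against 1.42 and 0.181 CPM (27 and 3), and Lcn6 had 1 count in each Crtc1+/+ library against 1.21 and 0.121 CPM (23 and 2). Lcn12 showed no such step, with 0.152 and 0.358 CPM against 0.368 and 0.362 CPM (3 and 7 against 7 and 6 counts). Ptgds had a different order, with 0.761 and 1.79 CPM (15 and 35 counts) against 4.68 and 12.0 CPM (89 and 198 counts), the higher value in replicate 2.

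Only Lcn8 and Ptgds had enough counts in liver to pass edgeR's filter on low counts, and neither was called among 11707 genes, of which 0.0854% were called in either direction. Lcn8 had a log2 fold change of 4.54 (SE 0.98, unadjusted p = 0.00110, adjusted p = 0.121), and Ptgds had 2.63 (SE 0.55, unadjusted p = 9.09e-04, adjusted p = 0.121). Lcn8 passed the filter only through the libraries labelled Crtc1-/-, so its direction was fixed by the filter and its p carries no weight as support. Ptgds, which passed in both groups, was higher with an unadjusted p under 0.05, as were 9.73% of all genes tested. DESeq2, whose count over all genes is given below, called both, with adjusted p = 1.28e-04 for Lcn8 and 6.49e-04 for Ptgds. For Lcn8 this p carries no weight either, for the same reason. Without replicate 1 of liver labelled Crtc1-/- the log2 fold change was 2.31 for Lcn8 and 3.15 for Ptgds. Without replicate 2 it was 5.36 for Lcn8 and 1.83 for Ptgds. These fits have 1 library in the Crtc1-/- group, so only sizes are given.

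The trace in liver labelled Crtc1-/- replicate 1 had proportions close to those of Crtc1+/+ eWAT. Of its 353 counts over the 6 Lcn genes, 47.9% were Lcn8 (95% Wilson interval 42.7 to 53.1), 19.5% Lcn5 (15.7 to 24.0), 16.4% Lcn9 (12.9 to 20.7), 7.65% Lcn10, 6.52% Lcn6 and 1.98% Lcn12. In the 2 Crtc1+/+ eWAT libraries Lcn8 had 48.0% and 41.7%, Lcn5 20.8% and 21.2%, Lcn9 18.2% and 23.7%, Lcn10 6.99% and 7.65%, Lcn6 4.54% and 4.34%, and Lcn12 1.36% and 1.49%. Both eWAT values lay within the interval for Lcn5 and 1 of the 2 did for Lcn8 and Lcn9. In eWAT labelled Crtc1-/- replicate 1 the make-up was different, with Lcn12 at 64.5% of 31 counts (46.9 to 78.9) and Lcn8 at 16.1% (7.09 to 32.6). In replicate 2 Lcn8 had 35.8% of 53 counts (24.3 to 49.3) and Lcn12 7.55% (2.97 to 17.9). In liver labelled Crtc1-/- replicate 2 Lcn8 had 18 of 36 counts, and Lcn5 had 1 count, or 2.78% (0.492 to 14.2), below its share in Crtc1+/+ eWAT.

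**Figure D2:**
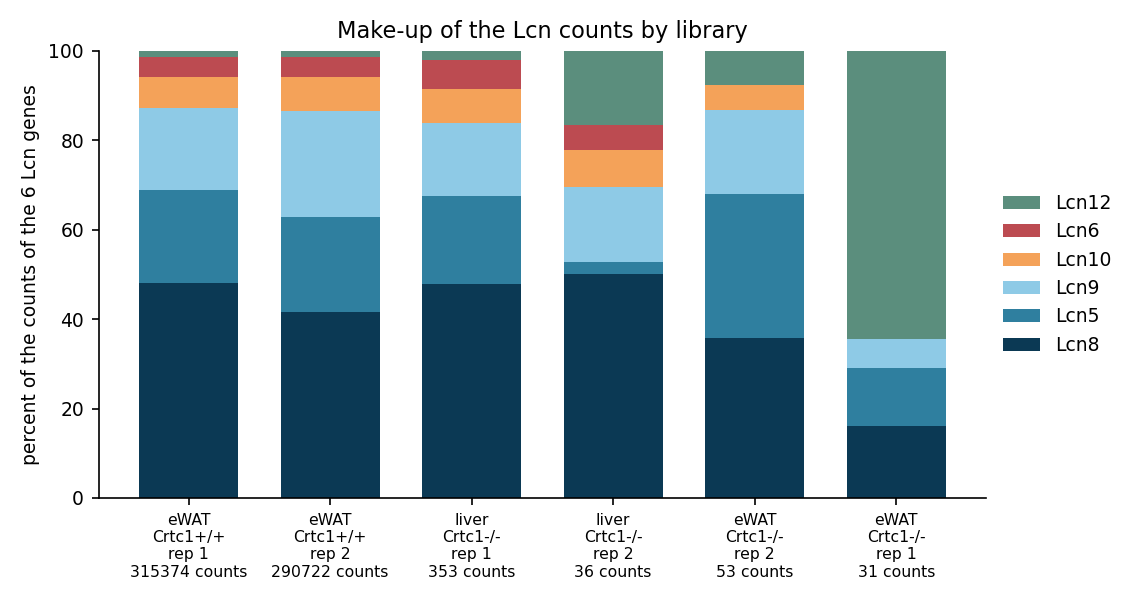
Share of each gene in the summed counts of the 6 Lcn genes (percent, bars add up to 100) for the 2 Crtc1+/+ eWAT libraries and the 4 libraries labelled Crtc1-/-, with the number of counts under each bar. The bar of liver labelled Crtc1-/- replicate 1 (353 counts) resembles those of Crtc1+/+ eWAT, whereas Lcn12 takes 64.5% of the 31 counts of eWAT labelled Crtc1-/- replicate 1.

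Set against the mean level in Crtc1+/+ eWAT, the 6 Lcn genes in liver labelled Crtc1-/- replicate 1 were between 0.0866% (Lcn9) and 0.161% (Lcn6), with a median of 0.116%. Gpx5 stood at 0.101% there, and the median over the 42 epididymis markers with at least 100 CPM in both Crtc1+/+ eWAT libraries was 0.0956%. In liver labelled Crtc1-/- replicate 2 the median of the 6 Lcn genes was 0.0145% and Gpx5 was at 0.0153%. In eWAT labelled Crtc1-/- replicate 2 these values were 0.0152% and 0.0113%, and in replicate 1 they were 0.00332% and 0.00351%. The median over the 42 markers had another order, with 0.0129% in liver replicate 2, 0.0245% in eWAT replicate 2 and 0.0356% in eWAT replicate 1. In eWAT replicate 1 the markers spread widely, with quartiles of 0.00413% and 0.772% and a maximum of 4.11%. The source of this trace was not tested.

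Lcn12 and Ptgds had higher percentages than Gpx5 in eWAT labelled Crtc1-/-. In replicate 1 Lcn12 was at 0.450% of its Crtc1+/+ eWAT mean (0.275 to 0.695, exact Poisson interval) and Ptgds at 7.08% (6.55 to 7.66). In replicate 2 Lcn12 was at 0.0944% (0.0257 to 0.242) and Ptgds at 0.893% (0.705 to 1.12). None of these intervals reached the value of Gpx5 in the same library, but Lcn12 lay within the range of the 42 markers in both, between their quartiles in replicate 1 and below their maximum of 0.147% in replicate 2. Ptgds lay above the maximum of the markers in both. In liver labelled Crtc1-/- Ptgds was at 0.957% and 2.45%, also above Gpx5, and Lcn12 was at 0.153% and 0.151%, against 0.0633% and 0.149% in Crtc1+/+ liver.

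**Figure D3:**
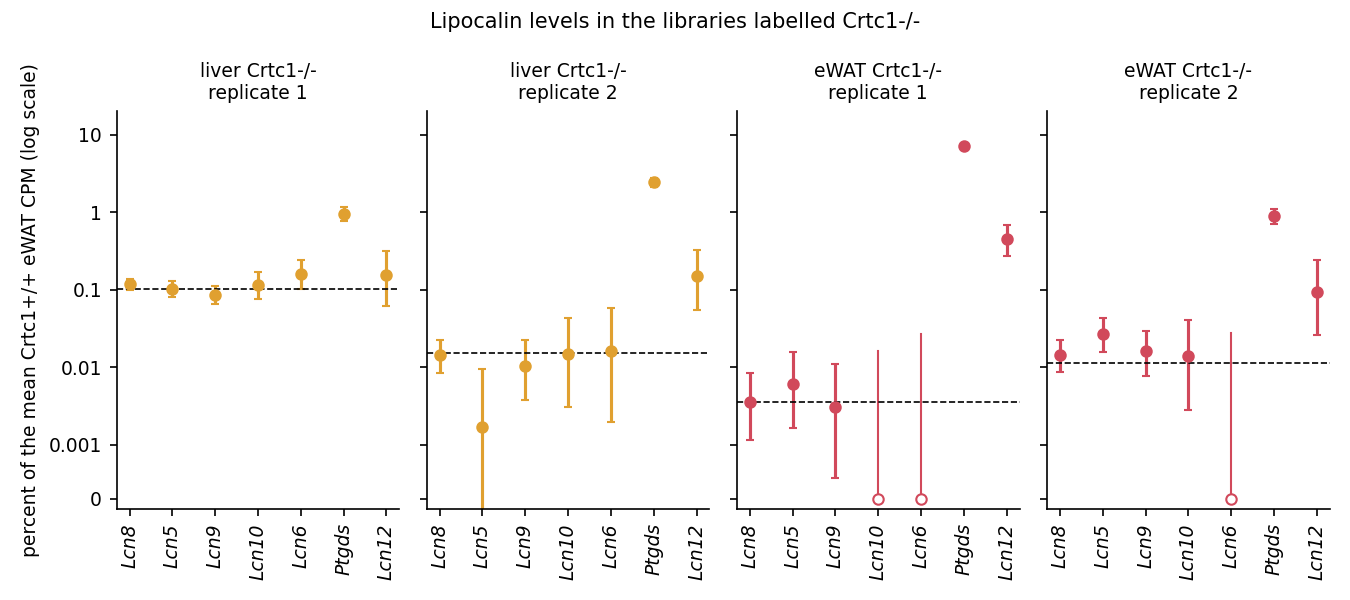
Level of each lipocalin gene in the 4 libraries labelled Crtc1-/- as a percent of its mean CPM in Crtc1+/+ eWAT (log axis), with 95% exact Poisson intervals for counting error, open symbols for 0 counts and a dashed line at the percent of Gpx5 in the same library. In liver replicate 1 the Lcn genes lie near the line at 0.101%, and Ptgds lies above the line in every panel, highest at 7.08% in eWAT replicate 1.

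Between tissues, all 7 genes were called higher in eWAT than in liver in Crtc1+/+ mice, where 35.0% of all 15587 genes tested were. The Lcn genes were below edgeR's filter on low counts in Crtc1+/+ liver and above it only in eWAT of these mice. A call for them could thus only be higher in eWAT, and their p carries no weight as support for that direction. Ptgds was above the filter level in both tissues. The log2 differences ran from 7.18 for Ptgds (SE 1.06, adjusted p = 0.00245) and 8.46 for Lcn12 (SE 0.60, adjusted p = 4.37e-04) to 16.86 for Lcn10 (SE 1.995, adjusted p = 0.00180), which had no count in Crtc1+/+ liver. Lcn8 had 13.76 (SE 1.69, adjusted p = 0.00136). In mice labelled Crtc1-/- none of the 7 was called higher in eWAT. Lcn6 and Lcn8 were called lower in eWAT than in liver there (edgeR adjusted p = 0.0197 and 0.0451), against 8.89% of all genes. Neither call held without replicate 1 of liver labelled Crtc1-/-, when the adjusted p was 0.0663 for Lcn6 and 0.277 for Lcn8, and that of Lcn8 was also lost with library-size scaling (0.0532). Ptgds had a log2 difference of -0.04 (SE 0.81) and Lcn12 of -0.34 (SE 0.60), and the sign of both changed with the scaling. The change with genotype was lower in eWAT than in liver for 7 of the 7 genes in the interaction test, which called 3.16% of all genes in that direction.

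The genes between and beside the lipocalins that are no lipocalins themselves had smaller differences than the 6 Lcn genes. The 100 kb window held 13 lipocalin genes, and those outside the 7 were left out of this comparison. Lipocalins outside the 7 are described below, among which Obp2a fell by 8.18. Of 20 tested genes within 100 kb that are no lipocalins, edgeR called 2 lower and 1 higher in eWAT labelled Crtc1-/-, beside 5.54% lower and 6.65% higher over all genes, and their median log2 fold change was -0.52. Bmyc, a Myc family member that lies between Lcn10 and Lcn9, had 307 and 273 CPM against 29.99 and 12.1 CPM and fell by 3.52 (SE 0.46, adjusted p = 0.0208). Clic3, a chloride channel family gene between Abca2 and Ptgds, had 49.8 and 27.7 CPM against 3.40 and 0.511 CPM and was not called (log2 fold change -4.06, SE 0.91, adjusted p = 0.0519). Abca2, a lipid transporter gene, had 522 and 638 CPM against 72.2 and 39.1 CPM and fell by 3.10 (SE 0.40, adjusted p = 0.0205). Npdc1 rose by 1.76 (SE 0.37, adjusted p = 0.0448). Edf1 and Rabl6, between Lcn12 and Lcn8, had log2 fold changes of 0.65 (SE 0.33, adjusted p = 0.233) and 0.01 (SE 0.27, adjusted p = 0.975). The lowest value among these neighbours was that of Ccdc183, with -4.61 (SE 1.27, adjusted p = 0.0789), from 4.81 and 3.46 CPM against 0.270 and 0 CPM.

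**Figure D4:**
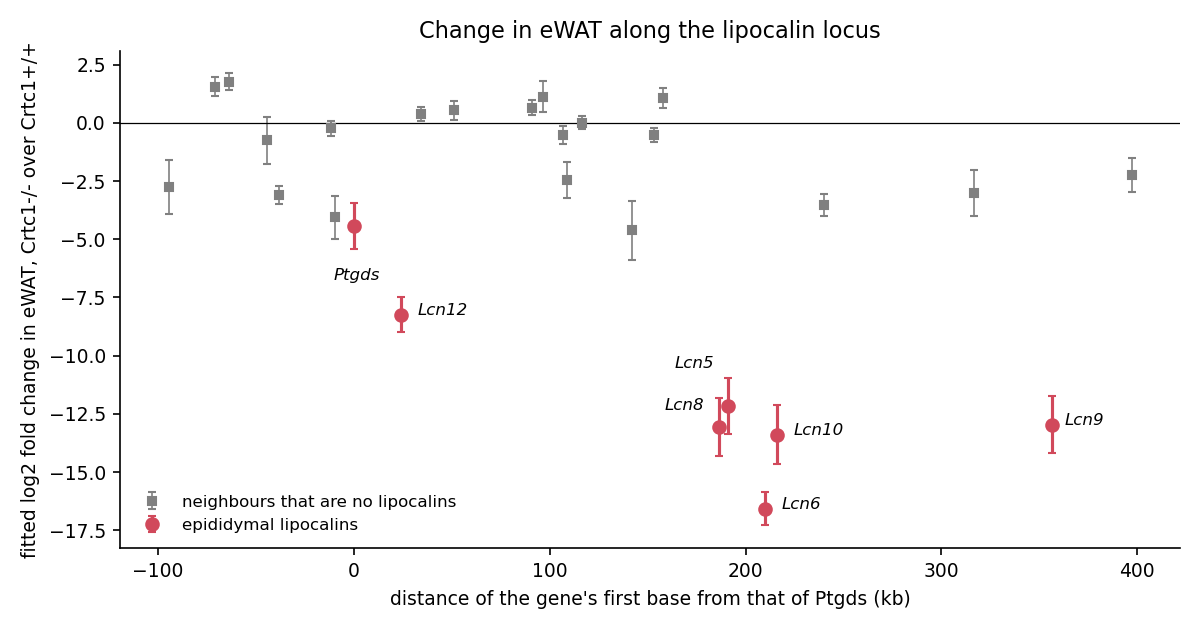
Fitted log2 fold change in eWAT, Crtc1-/- over Crtc1+/+ (bars, SE), of the 7 lipocalin genes (red) and of 20 neighbouring genes that are no lipocalins (grey), by the distance of each gene's first base from that of Ptgds in kb. The 5 plus-strand lipocalins lie between -12.16 and -16.58, the neighbours lie between -4.61 and 1.76, and the value of Lcn6, which had no count in eWAT labelled Crtc1-/-, depends on the count the model adds.

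Other lipocalins of the genome behaved in a mixed manner. Of 35 in the table, 22 could be tested in eWAT, and 6 were called lower and 2 higher, with a median log2 fold change of 4.22. Lcn2, the siderophore-binding lipocalin of neutrophils and inflamed epithelia, had 6672 and 5748 CPM in Crtc1+/+ eWAT against 233 and 34.4 CPM and fell by 5.32 (SE 1.06, adjusted p = 0.0411). In liver it had 35.5 and 21.0 CPM against 388 and 90.4 CPM (log2 fold change 3.04, adjusted p = 0.113). Obp2a, an odorant-binding lipocalin, had 41.8 and 42.2 CPM in eWAT against 0.108 and 0.113 CPM and fell by 8.18 (SE 0.48, adjusted p = 0.0119), and Obp2b had 2.68 and 3.29 CPM against no count in either library. Apod, a carrier of progesterone and arachidonic acid, had 238 and 163 CPM against 51.1 and 22.2 CPM and fell by 2.18 (SE 0.44, adjusted p = 0.0417). The 2 called higher were the acute-phase genes Orm1 (28.1 and 3.97 against 329 and 360 CPM) and Orm3 (0.437 and 0.0568 against 23.3 and 11.1 CPM). The Orm genes, and Mup4 and Mup6, which were called lower, belong to families of near-identical copies whose counts are uncertain, and Mup3 and Mup10 as well as Rbp4, made by hepatocytes, were highest in the eWAT library rich in hepatocyte markers and were not called.

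Of 23 tested genes for epididymal regulators, 5 were called lower and none higher, with a median log2 fold change of -0.89. Ros1, a receptor tyrosine kinase of the initial segment of the epididymis, had 78.1 and 161 CPM against no count in either library labelled Crtc1-/-. Foxi1, the forkhead factor of acid-secreting cells, had 79.4 and 86.6 CPM against 0.108 and 0 CPM. The ETS factors Etv5 (180 and 303 against 13.1 and 6.52 CPM) and Etv4 (52.4 and 58.5 against 0.648 and 0.284 CPM) fell by 4.35 and 6.59. Pax8 had 251 and 230 CPM against 22.6 and 0.0567 CPM and was not called (log2 fold change -4.22, SE 1.92, adjusted p = 0.196). Its mean over all eWAT libraries was the highest of the list, at 126.1 CPM, just above Etv5 at 125.6 CPM.

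The pathways of the lipocalins' ligands gave calls in both directions. Of 21 tested genes of prostaglandin D2 synthesis, transport and reception, 1 was called, a lower one (4.76%, against 5.54% of all genes), and the median log2 fold change was 0.15. This was Ptgs2, the inducible cyclooxygenase that supplies the substrate of Ptgds, with 19.0 and 7.21 CPM against 0.162 and 0 CPM (fell by 6.93, SE 1.23, adjusted p = 0.0333). Of 23 retinoid genes, 5 were called higher (21.7%, against 6.65% of all genes) and none lower, with a median of 0.96. They were the retinol-binding protein gene Rbp7 (6.12 and 13.1 against 366 and 145 CPM), the retinaldehyde reductase gene Dhrs3 (113 and 86.2 against 591 and 390 CPM) and the receptor genes Rarg, Rxra and Rxrg. Aldh1a1, which makes retinoic acid, had 922 and 1430.2 CPM against 165 and 274 CPM and was not called (log2 fold change -2.08, adjusted p = 0.0669). Among 6 receptors for lipocalins, Lrp1 was called higher (148 and 122 against 442 and 486 CPM), and Lrp2, the receptor megalin, had 50.3 and 63.0 CPM against 18.6 and 0.454 CPM and was not called (adjusted p = 0.280).

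Across the 8 libraries, the genes whose log2(CPM + 1) was most like the mean of the 7 lipocalins, by Pearson's r over 11533 genes with at least 10 CPM in a library, were Defb47 (r = 0.9998), Ly6g5b, Defb48, 9230104L09Rik, Defb25, Rnase10, Wfdc13, Clpsl2, Cst11 and Defb20 (r = 0.998). Of these 10 genes, 7 were on the epididymis list. Defb47, a beta-defensin gene, had 1798 and 1650 CPM in Crtc1+/+ eWAT, 0.540 and 0.454 CPM in eWAT labelled Crtc1-/-, 0.0507 and 0 CPM in Crtc1+/+ liver and 2.10 and 0.543 CPM in liver labelled Crtc1-/-. The lipocalin genes' own r with that mean was 0.925 for Ptgds and between 0.994 and 0.999 for the others. The value is a description, since 2 libraries stand far above the other 6 and set it, and 1280 genes reached 0.9.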

How the data were processed

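RNA-seq was made from 8 libraries, grouped by the tissue and genotype given in the labels. The authors deposited estimated counts per gene, of which 5.44% to 9.98% of values per library were not whole, and a matrix of FPKM. HISAT, Bowtie2 and the build GRCm38.p6 come from the submitters' processing notes, and the counting tool and annotation are not given in the sources used here. Counts were rounded to whole numbers and tested with edgeR 4.0.16 (R 4.3.3, filterByExpr, TMM, quasi-likelihood test, Benjamini-Hochberg), separately in eWAT and liver, and in a fit of all 8 libraries for tissues and the interaction. CPM are counts divided by library totals, whereas fitted changes are on the TMM scale. A call was an adjusted p under 0.05. Alternatives were upper-quartile, library-size and restricted TMM scaling, DESeq2 1.42.0, limma 3.58.1 on normalized log2(FPKM + 1) and log2(FPKM + 0.1), other count filters, 1 common fit, a replicate block and leaving out each library. Counting intervals (95%, Wilson for shares, exact Poisson for levels) and the floor of 3 counts cover counting error only. Fits were tested on simulated data. The labels name 2 separate samples per group, and the methods call them biological replicates.

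The 7 genes and the other gene lists were chosen with earlier results of these data known. The text names all 7 genes, Crtc1, the 3 or 4 most abundant genes in eWAT of a list or its called genes (up to 6), the 10 most similar genes, and neighbours within 100 kb, giving examples of each; Myh11, Dpt and Pdgfra are named because their lists had few calls. Upstream sequences and positions were from RefSeq (GRCm38.p6), where all 7 symbols matched. The values of 1 called gene of the regulator list are not reported here.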

Additional observations from a re-analysis of the deposited data

Results flagged for a closer look

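The effect of genotype differed between eWAT and liver for all 7 lipocalin genes, by the interaction term of an edgeR fit over the 8 libraries. The difference of the log2 fold changes, eWAT minus liver, was -17.65 for Lcn8 (adjusted p = 0.00950), -18.14 for Lcn5 (0.0163), -18.82 for Lcn9 (0.00959), -21.08 for Lcn10 (0.0113), -19.73 for Lcn6 (0.00950), -8.80 for Lcn12 (0.00883) and -7.21 for Ptgds (0.0231). The direction was that of the values in each library, with all 7 genes lower in both eWAT libraries labelled Crtc1-/- than in both Crtc1+/+ eWAT libraries. The share of all genes separated in this way was not counted. The sizes for Lcn5, Lcn6, Lcn9 and Lcn10 rest on groups with 0 counts in a library and depend on the count that the model adds. None of the 7 was called in the interaction test without Crtc1+/+ liver replicate 1 (adjusted p between 0.0604 for Lcn12 and 0.111 for Ptgds).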

How the results depend on the processing

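All 7 lipocalin genes had a negative log2 fold change in eWAT in all 14 alternatives, with a median between -10.08 (limma on log2(FPKM + 1)) and -14.59 (without eWAT labelled Crtc1-/- replicate 2). The number called, 6, was 7 at the study's threshold, 0 with the replicate block (adjusted p 0.0543 to 0.0645, all 7 at an unadjusted p under 0.05) and 0 to 7 when a library was left out. Over all genes edgeR called 1875 in eWAT, DESeq2 4620, the common fit of 8 libraries 3861, the replicate block 0 (5418 at an unadjusted p under 0.05) and the leave-one-out fits 0 to 3073. Deviations of libraries with the same replicate number correlated at 0.0205 across genotypes in eWAT and 0.0736 in liver. Across tissues they correlated at 0.152 in Crtc1+/+ and 0.0356 in Crtc1-/- mice. With 2 libraries per group these values cannot decide which liver and eWAT libraries came from 1 mouse. The main fit of all 8 libraries had no term for the mouse. In liver, where 0 of the 2 lipocalin genes tested were called, DESeq2 and the replicate block called 2, the fit with no filter 5, and the leave-one-out fits 0 to 5. Over all genes in liver the count was 10, against 311 (DESeq2), 301 (no filter), 82 (replicate block), 0 (both limma fits and the common fit) and 1 to 1506 without a library. The interaction test called 1081 genes, against 2056 (DESeq2), 705 (library-size scaling), 1746 (replicate block) and 0 to 2261 without a library, and 7 lipocalin genes, against 0 to 7 without a library. Between tissues in Crtc1+/+ mice 8552 genes were called, against 4285 to 8871 without a library. Between tissues in mice labelled Crtc1-/- 4330 genes were called, against 7126 with library-size scaling and 1511 to 5962 without a library, and 2 lipocalin genes, against 1 with library-size scaling, 1 with the replicate block and 0 to 4 without a library. There the log2 difference turned positive with library-size scaling for Lcn12 (0.84) and Ptgds (1.23) and with upper-quartile scaling for Ptgds (0.042). Without a library it ranged from -4.43 to 2.26 for Lcn5, from -1.53 to 0.20 for Lcn12 and from -1.78 to 0.74 for Ptgds, and none of these 3 was called with all libraries. The cause of these shifts was not tested. At these depths, levels under 3 counts were not resolved.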
